A study of Mus musculus with 5 samples.

Results

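Meg3, Rian and Mirg are long non-coding RNAs (lncRNAs) transcribed one after the other, on the plus strand, from the imprinted Dlk1-Dio3 domain of mouse chromosome 12. Their ribosome profiling reads were followed in mouse embryonic stem cells (mESCs). Whether each of these reads is a ribosome footprint was not tested. The members were all transcripts of the deposited table that carry one of the 3 gene symbols in Gencode M21, whatever their transcript type. This gave 43 of 135276 transcripts, and 3 of 53664 genes. The 3 genes were selected on their values in these libraries, with the comparison of the methods known, so their levels and the difference between the methods are given as a description, from which no evidence is drawn.

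The study profiled ribosomes of mESCs by standard RIBO-seq (3 libraries) and by AHARIBO RIBO-seq (2 libraries). All 5 libraries came from self-renewing cells kept in serum with LIF, a cytokine that holds them undifferentiated, and the labels call all of them untreated. Every culture received cycloheximide, which stalls elongating ribosomes, and every lysate was digested with RNase I, so that the RNA fragments shielded by ribosomes remained. In standard RIBO-seq the ribosomes were pelleted through sucrose. In AHARIBO RIBO-seq, nascent peptides that had taken up the methionine analogue L-azidohomoalanine (AHA) were coupled to biotin and pulled down on beads together with their ribosomes, and no sucrose step is described for them. The dose and time of AHA are not restated for these libraries. The 2 preparations therefore differ in more than the capture of nascent peptides, and the steps cannot be told apart. The study's text calls the replicates of each method independent and says that standard RIBO-seq was run on the input of the capture. It does not tie single libraries of the methods to each other.

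Imprinted genes are expressed from the allele of a single parent. In the Dlk1-Dio3 domain, the protein-coding genes Dlk1, Rtl1 and Dio3 are expressed from the paternal chromosome, and Meg3 (also Gtl2), Rian and Mirg from the maternal one. Meg3 is a largely nuclear RNA that binds the Polycomb complex PRC2. Rian is the host of a cluster of C/D box snoRNAs, and Mirg that of a cluster of miRNAs. Loss of the maternally expressed RNAs is a known defect of mouse pluripotent lines.

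After removal of duplicate reads, the libraries held 6403651 to 11150527 reads assigned to transcripts, and a count of 3 reads corresponded to 0.262 to 0.476 CPM, the unit for reads scaled to the total of the library. All 10 pluripotency markers reached 1 CPM. Their summed level was 3497 to 3603 CPM in standard RIBO-seq and 3316 to 3507 CPM in AHARIBO RIBO-seq. Pou5f1, the pluripotency factor also called Oct4, was at 576 to 657 CPM. Neural markers summed to 99.4 to 123 CPM, endoderm markers to 303 to 360.5 CPM, mesoderm markers to 5.39 to 10.1 CPM and fibroblast markers to 8.08 to 13.9 CPM over the 5 libraries. The endoderm sum was mostly Sparc, at 291.5 to 344.7 CPM, while Sox17, the next of that list, was at 4.94 to 11.6 CPM. Of the fibroblast markers, Dcn and Lum were at 0 in every library. None of these 5 lists held a gene that passed the test described below.

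The table gives reads per transcript, and the transcripts of each member overlap. Up to 9 transcripts of Meg3 and up to 8 of Rian or of Mirg cover the same base. Across the whole table, 4266 pairs were found in which a transcript lies entirely inside another of the same gene, and the inner transcript had more reads than the outer in 0.127% of 21330 comparisons. A read was thus counted for each transcript it matched. Sums over a gene count the same read several times, and transcripts of a gene are not independent measurements.

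At the gene level, Rian had 2.05-fold more reads in AHARIBO RIBO-seq, Meg3 1.27-fold more, and the values of Mirg overlapped between the methods. Meg3 was at 28.3, 31.9 and 23.1 CPM in standard RIBO-seq replicates 1, 2 and 3, and at 37.7 and 33.1 CPM in AHARIBO RIBO-seq replicates 1 and 2. Both AHARIBO values lay above all standard values, the lower by a narrow margin. Standard RIBO-seq averaged 27.7 ± 4.42 CPM (SD, n = 3) and AHARIBO RIBO-seq 35.4 ± 3.30 CPM (SD, n = 2), and the log2 fold change of AHARIBO over standard RIBO-seq was 0.34 (SE 0.15).

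For Rian the standard values were 18.4, 24.9 and 11.6 CPM, and the AHARIBO values 38.5 and 37.9 CPM. The AHARIBO libraries differed from each other by far less than the standard libraries did, and the groups did not overlap. Standard RIBO-seq averaged 18.3 ± 6.64 CPM (SD, n = 3) and AHARIBO RIBO-seq 38.2 ± 0.407 CPM (SD, n = 2). The fitted log2 fold change of AHARIBO over standard RIBO-seq was 1.04 (SE 0.23). Mirg was at 3.82, 3.87 and 2.17 CPM in standard RIBO-seq and at 6.11 and 3.31 CPM in AHARIBO RIBO-seq. AHARIBO replicate 1 was the highest of the 5 libraries, while replicate 2 fell within the standard range. Standard RIBO-seq averaged 3.29 ± 0.968 CPM (SD, n = 3) and AHARIBO RIBO-seq 4.71 ± 1.98 CPM (SD, n = 2), and the log2 fold change of 0.50 (SE 0.33) became -0.016 without AHARIBO replicate 1.

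Over all 20256 genes with at least 1 CPM in a library, 18.2% had both AHARIBO values above all standard values, as Meg3 and Rian had. With 3 libraries against 2, an exact permutation test cannot give a two-sided p below 0.1. In bulk libraries such as these, fewer cells that hold an RNA and fewer ribosomes on it per cell cannot be told apart.

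**Figure D1:**
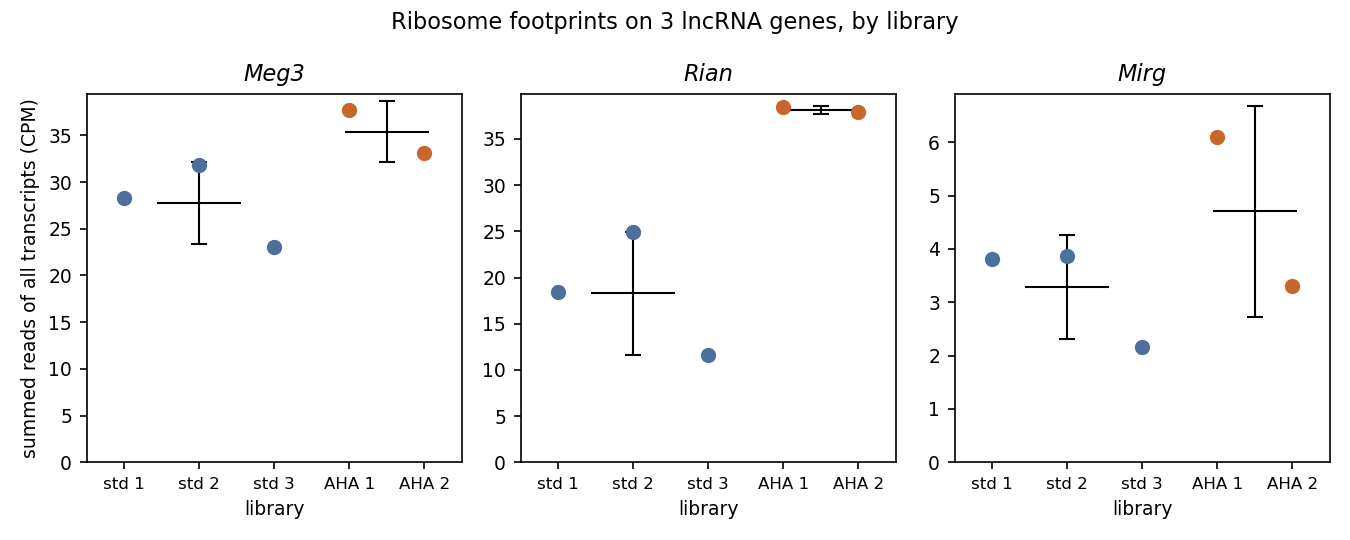
Scaled read counts (CPM, summed over all transcripts of the gene) of Meg3, Rian and Mirg in the 3 standard (std) and 2 AHARIBO (AHA) RIBO-seq libraries; points are libraries, horizontal bars the means and error bars the SD. The AHARIBO values of Rian, 38.5 and 37.9 CPM, lie clear of the standard values of 11.6 to 24.9 CPM, while those of Mirg overlap.

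Of the 43 transcripts, 24 reached 1 CPM in at least 1 library and entered the fit, edgeR's quasi-likelihood test over 66972 transcripts. The 24 were 10 of 11 for Meg3, 11 of 20 for Rian and 3 of 12 for Mirg. Of these, 7 reached 1 CPM in AHARIBO libraries alone, among them Rian-207 and all 3 of Mirg. Another 18 had reads but stayed under 1 CPM, and 1, Mirg-205, had none. Of the 24, 7 had a Benjamini-Hochberg adjusted p under 0.05, all with more reads in AHARIBO RIBO-seq. Without AHARIBO replicate 1 the number was 2, and without standard replicate 1 or standard replicate 3 it was 4. Over all transcripts tested, 2.27% were called higher and 4.51% in either direction, and 17.3% had both AHARIBO values above all standard values. The genes were chosen on these same values and their transcripts overlap, so these counts are not a test of the members and nothing is read from them.

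Meg3 has 11 transcripts in the table and spans chr12:109541001-109571726 (GRCm38, plus strand). The most abundant was Meg3-207 (1896 nt), with 6.27, 6.84 and 4.601 CPM in standard and 7.61 and 6.19 CPM in AHARIBO RIBO-seq. It was followed by Meg3-201 (1988 nt), with 4.93, 5.52 and 3.97 CPM in standard and 6.04 and 5.39 CPM in AHARIBO RIBO-seq. Meg3-206 (5971 nt) had 4.82, 5.19 and 4.13 CPM in standard and 5.16 and 5.19 CPM in AHARIBO RIBO-seq. In all 3 transcripts the ranges of the methods overlapped, and their log2 fold changes were 0.20 (SE 0.17), 0.23 (SE 0.18) and 0.12 (SE 0.19).

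Meg3 has transcripts that cover separate stretches of the gene. Meg3-203 is a short transcript of 457 nt near the 5′ end, and Meg3-209 is a transcript of 14548 nt that begins downstream of it and runs to the 3′ end. They share no stretch of 16 nt or more. Meg3-203 had 30, 36 and 19 reads in standard and 43 and 33 reads in AHARIBO RIBO-seq, or 3.36, 3.97 and 3.01 against 3.76 and 3.29 CPM. The groups overlapped, and the log2 fold change was 0.02 (SE 0.22). Meg3-209 had 10, 11 and 7 reads in standard and 34 and 24 reads in AHARIBO RIBO-seq, or 1.12, 1.21 and 1.11 against 2.97 and 2.40 CPM. Here the groups were apart, with a log2 fold change of 1.22 (SE 0.32). Whether the fold changes of the 2 stretches differ was not tested.

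Per length, the 5′ stretch was denser in every library. Meg3-203 had 7.55 ± 1.06 CPM per kb (SD, n = 3) in standard and 7.72 ± 0.722 CPM per kb (SD, n = 2) in AHARIBO RIBO-seq. Meg3-209 had 0.0789 ± 0.00393 and 0.185 ± 0.0281 CPM per kb. Of the reads of both stretches together, Meg3-203 held 75.0%, 76.6% and 73.1% in standard and 55.8% and 57.9% in AHARIBO RIBO-seq. The 95% Wilson intervals were wide, from 53.9% to 86.4% over the standard libraries and from 44.7% to 69.8% over the AHARIBO libraries, and they cover counting error only. The intervals of the 2 methods overlapped, although the 5 values did not.

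**Figure D2:**
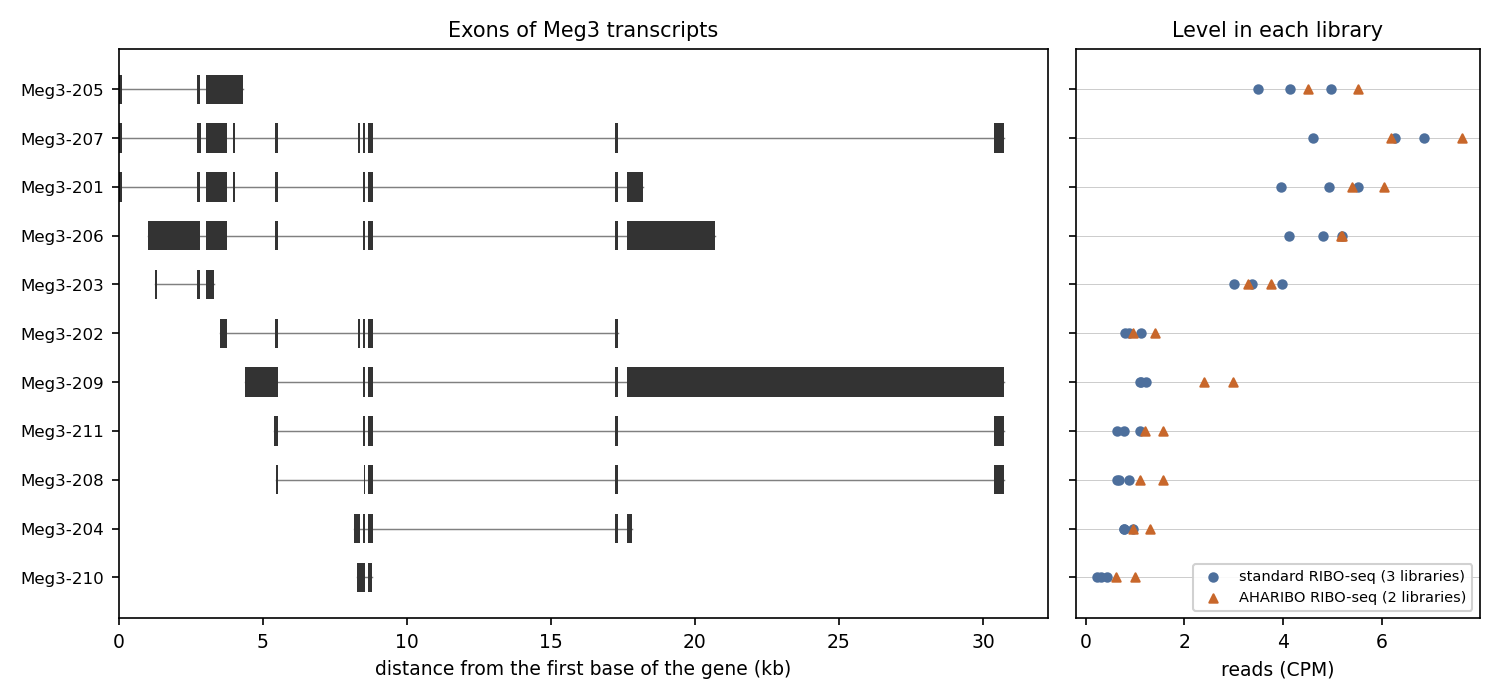
Left, exons of the 11 Meg3 transcripts (black boxes) by distance in kb from the first base of the gene; right, scaled read counts (CPM) of each transcript in the 3 standard (circles) and 2 AHARIBO (triangles) RIBO-seq libraries. The 5 transcripts with the highest values (Meg3-201, Meg3-203, Meg3-205, Meg3-206 and Meg3-207) hold both exons near 3 kb and have overlapping groups, while Meg3-209, which lies 3′ of these exons, has 1.11 to 1.21 CPM in standard and 2.40 to 2.97 CPM in AHARIBO RIBO-seq.

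The dense 5′ stretch has a near-identical copy on another chromosome. Gm27000, annotated as a lincRNA of 842 nt at chrX:88759471-88760312 (GRCm38, minus strand), matches the first 842 nt of the spliced Meg3-207 at 841 bases. Reads that lie within the identical stretches match both genes. Reads over the base that differs, or over the junction of exons 2 and 3 in transcripts that lack 44 nt of the copy, could differ between them, and the positions of reads were not analysed here. Meg3-203 shares 70.1% of its 30-nt windows with it, Meg3-207 41.9%, and Meg3-209 none. Meg3-209 shares 0.916% of its windows with other genes of the table, 388 in number. It also overlaps a lincRNA on the opposite strand, Gm26906. Whether reads from these genes entered the counts of Meg3-209 was not tested. Gm27000 had 40, 47 and 23 reads in standard and 57 and 40 in AHARIBO RIBO-seq, with a log2 fold change of -0.00 (SE 0.20, edgeR adjusted p = 0.999).

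Since a read was counted for every transcript it matched, the reads of Gm27000 also give the share of Meg3-207 that fell in its first 842 nt, apart from any reads over the base that differs. This share was 71.4%, 75.8% and 79.3% in standard and 65.5% and 64.5% in AHARIBO RIBO-seq. The remaining 1054 nt of Meg3-207 held 16, 15 and 6 reads in standard and 30 and 22 in AHARIBO RIBO-seq, or 1.79, 1.66 and 0.952 against 2.63 and 2.20 CPM. There the groups did not overlap, and the log2 fold change was 0.67 (SE 0.32), against 0.20 (SE 0.17) for the whole of Meg3-207. This subtraction was chosen after the data were seen. Taking out the reads of Gm27000, which had a smaller fold change than the whole, raises the fold change by construction. Not every transcript that lies mostly outside the copy was higher in both AHARIBO libraries. Meg3-202, with 13.4% of its windows in Gm27000, was at 1.12, 0.883 and 0.793 CPM in standard and at 0.962 and 1.398 CPM in AHARIBO RIBO-seq, and Meg3-206, with 10.4%, had overlapping groups as given above. Whether the reads of the 5′ part came from Meg3, from Gm27000 or from both was not tested.

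**Figure D3:**
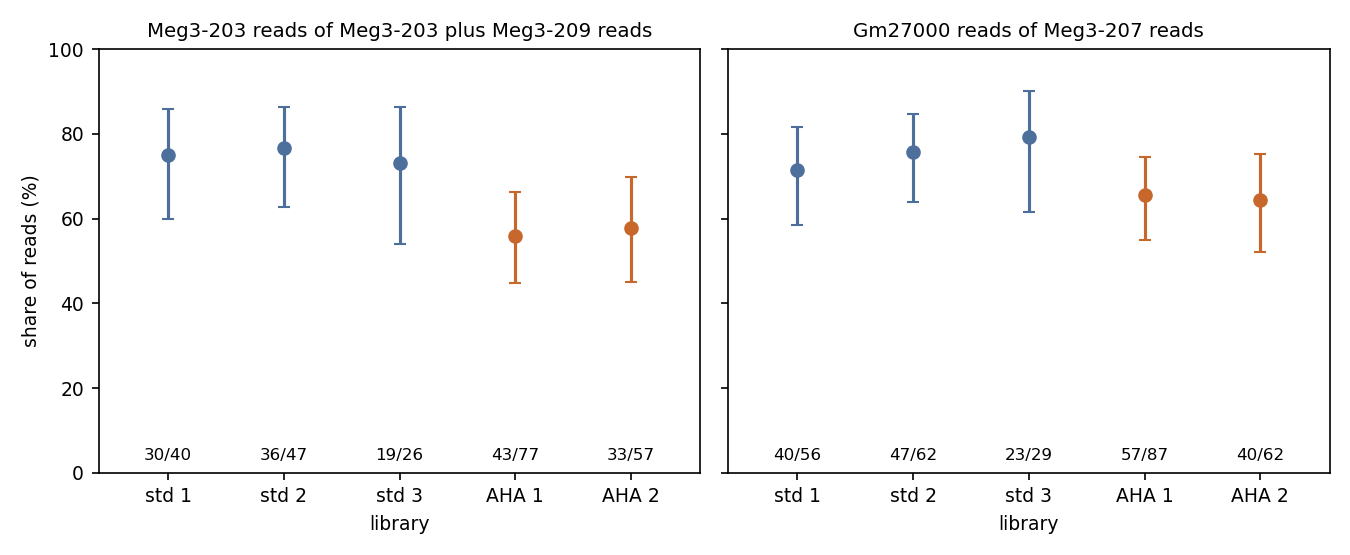
Left, share (%) of Meg3-203 reads among the reads of Meg3-203 and Meg3-209, which share no stretch of 16 nt; right, reads of Gm27000 as a share (%) of those of Meg3-207, in each standard (std) and AHARIBO (AHA) library. Bars are 95% Wilson intervals and numbers are read counts; the left shares are 73.1% to 76.6% in standard and 55.8% to 57.9% in AHARIBO RIBO-seq.

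The sequence of this stretch is shown because 64.5% to 79.3% of the reads of Meg3-207 fell in the part that holds it. The longest reading frame from an ATG in Meg3-203 has 76 codons and spans chr12:109543715-109544166 across exons 2 and 3. Of the 6 Meg3 transcripts scanned, Meg3-201, Meg3-205 and Meg3-206 hold the same frame. In Meg3-207 exon 2 is longer by 44 nt, and the frame from the same ATG has 83 codons. Other parts of these transcripts hold longer frames, of up to 199 codons in Meg3-206. In the Meg3 line, which is spliced, the capitals mark the start and stop codons. The Gm27000 line gives the matching stretch, chrX:88759928-88760202 on the minus strand, which includes the extra 44 nt, and its capital marks the base that differs. That difference is G52A, counted from 1 at the A of the ATG, with the base of Meg3 first. The positions of reads within transcripts were not analysed here, so whether this frame is read by ribosomes was not tested.
Meg3 frame: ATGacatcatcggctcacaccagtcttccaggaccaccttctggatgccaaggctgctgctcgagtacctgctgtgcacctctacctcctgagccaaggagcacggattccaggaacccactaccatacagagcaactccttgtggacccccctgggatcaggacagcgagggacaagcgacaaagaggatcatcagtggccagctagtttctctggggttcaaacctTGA
Gm27000 stretch: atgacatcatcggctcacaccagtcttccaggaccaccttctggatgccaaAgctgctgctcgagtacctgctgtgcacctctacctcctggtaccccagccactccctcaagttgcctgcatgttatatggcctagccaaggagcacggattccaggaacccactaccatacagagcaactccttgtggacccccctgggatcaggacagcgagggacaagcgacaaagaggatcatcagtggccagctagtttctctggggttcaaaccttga

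Rian has 20 transcripts in the table, spanning chr12:109603940-109661716, and 17 are annotated as lincRNA and 3 as TEC, a class that awaits experimental evidence. Rian-201 (8089 nt) was the most abundant, at 3.58, 5.08 and 2.22 CPM in standard and 6.74 and 6.99 CPM in AHARIBO RIBO-seq. Standard replicate 3 was the lowest library, and both AHARIBO libraries were above all standard ones. The log2 fold change was 0.86 (SE 0.20). Rian-202 (2355 nt) showed the same order, with 2.91, 3.75 and 1.904 CPM in standard and 5.60 and 5.79 CPM in AHARIBO RIBO-seq, and a log2 fold change of 0.94 (SE 0.21). Rian-220 (2624 nt, TEC) had 2.02, 3.64 and 1.43 CPM in standard and 3.94 and 4.59 CPM in AHARIBO RIBO-seq, and a log2 fold change of 0.78 (SE 0.25). Of the 11 Rian transcripts in the fit, 10 had both AHARIBO values above all standard values, beside 17.3% of all transcripts tested. These transcripts overlap, and 2 of the 11 reached 1 CPM in AHARIBO libraries alone, so nothing is read from the count. The exception was Rian-203. Rian-203 (989 nt) had 1.01, 1.77 and 1.27 CPM in standard and 1.84 and 1.60 CPM in AHARIBO RIBO-seq, where the groups overlapped, and a log2 fold change of 0.34 (SE 0.36). Rian-208 (352 nt), under 1 CPM in every library and so not fitted, had 6, 7 and 1 reads in standard and 3 and 6 reads in AHARIBO RIBO-seq, or 0.534 ± 0.329 CPM (SD, n = 3) against 0.431 ± 0.238 CPM (SD, n = 2), and was lower on average in AHARIBO RIBO-seq.

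Rian-204, Rian-207, Rian-211 and Rian-213 lie towards the 3′ end of the gene and share several exons. Rian-213 (1219 nt) had 14, 16 and 7 reads in standard and 48 and 31 reads in AHARIBO RIBO-seq, a log2 fold change of 1.27 (SE 0.28). Rian-207 (553 nt), which lies wholly inside Rian-213, had 5, 7 and 1 reads in standard and 25 and 17 reads in AHARIBO RIBO-seq. Its log2 fold change was 1.85 (SE 0.46), and it reached 1 CPM in the AHARIBO libraries alone. The part of Rian-213 outside Rian-207 held 9, 9 and 6 reads against 23 and 14, so both parts were higher in AHARIBO RIBO-seq. Rian-204 (908 nt) and Rian-211 (699 nt) had log2 fold changes of 1.08 (SE 0.32) and 1.20 (SE 0.36).

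Short 5′ transcripts of Rian had few reads. Rian-212 (294 nt) had 1, 0 and 0 reads in standard and 5 and 8 reads in AHARIBO RIBO-seq, and Rian-210 (295 nt) 1, 0 and 0 against 4 and 7. Rian-206 (329 nt), at the very 5′ end, had 2, 2 and 1 reads against 3 and 0. The standard values of these transcripts were at or under the 3 reads taken as the limit of the depth, so no fold change is given.

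**Figure D4:**
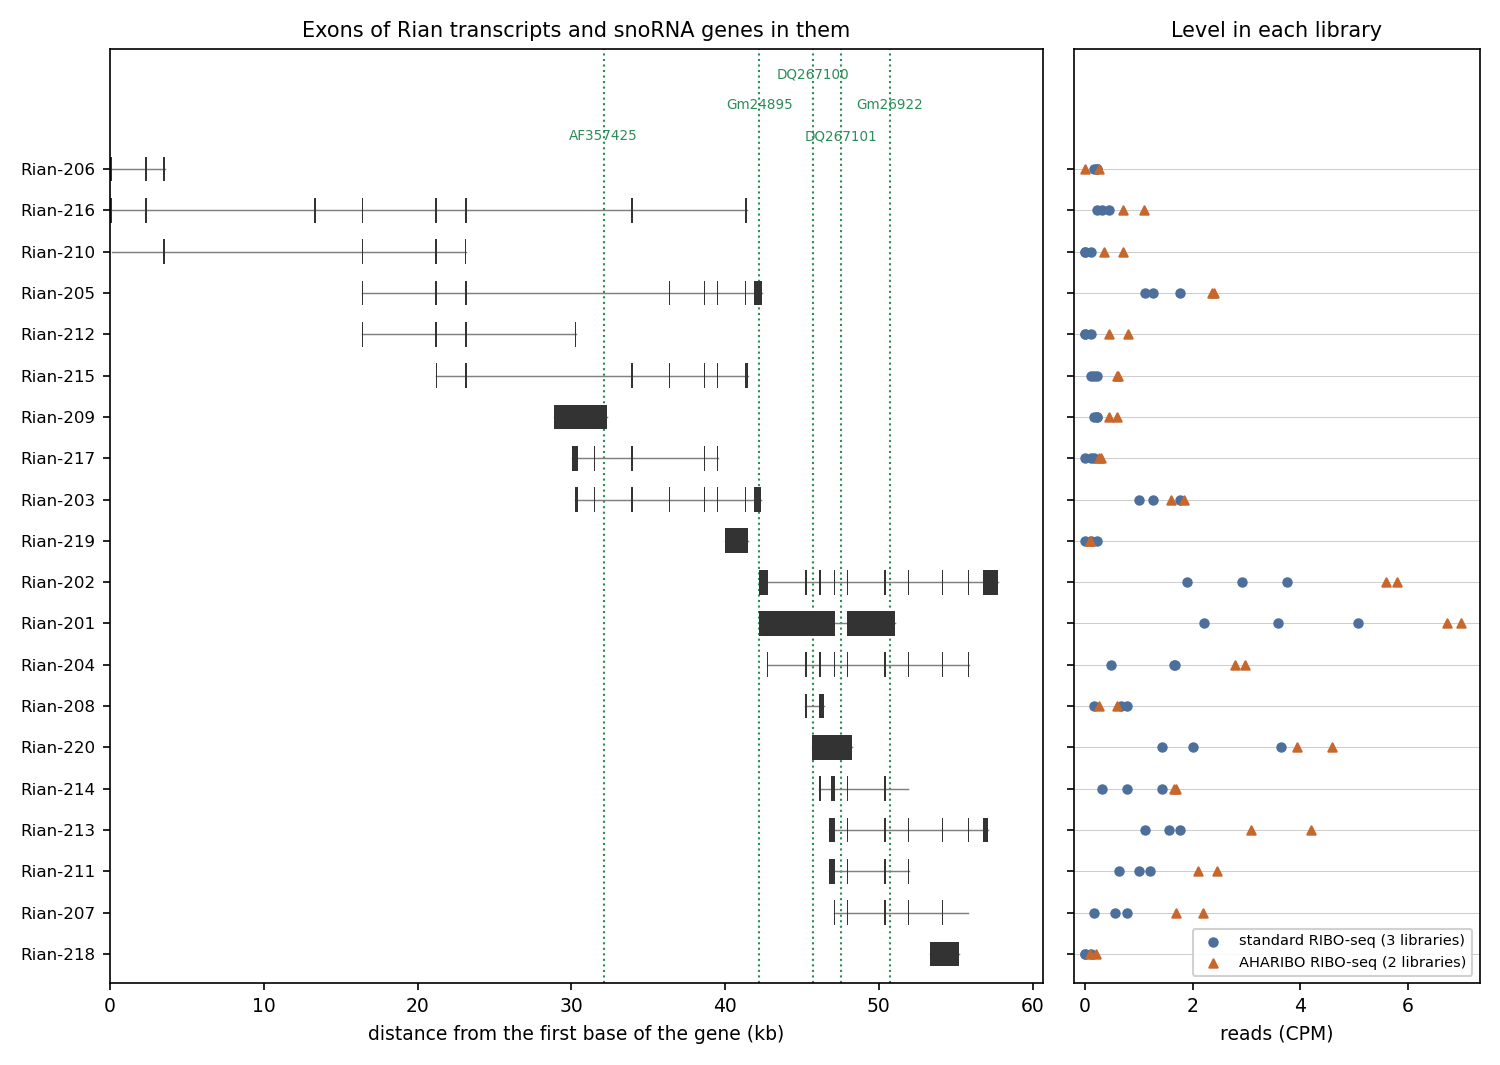
Left, exons of the 20 Rian transcripts (black boxes) by distance in kb from the first base of the gene, with dotted lines at the 5 snoRNA genes in them that had reads; right, scaled read counts (CPM) of each transcript in the 3 standard (circles) and 2 AHARIBO (triangles) RIBO-seq libraries. Transcripts from about 42 kb onward hold most reads, and in Rian-201 and Rian-202 the AHARIBO values (5.60 to 6.99 CPM) lie above all standard values (1.904 to 5.08 CPM).

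Part of the reads of Rian matched snoRNA genes that lie within its exons. Small nucleolar RNAs of the C/D box class guide 2′-O-methylation of other RNAs and are normally bound by nucleolar proteins rather than by ribosomes. The snoRNA gene with the most reads was Gm24895 (74 nt, chr12:109646129-109646202), with 7, 14 and 6 reads in standard and 15 and 10 reads in AHARIBO RIBO-seq. It made up 62.5% to 87.5% of the reads of Rian-203 (989 nt), which holds it wholly. DQ267100 (72 nt, chr12:109649617-109649688), inside Rian-201 and Rian-220, had 5, 9 and 2 reads against 11 and 12. DQ267101 had 2, 6 and 3 reads against 8 and 7, and Gm26922 1, 4 and 1 against 10 and 2.

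The sequences of Gm24895, DQ267100 and DQ267101 are shown because these bases are shared by snoRNA and host, and that of Gm26922 is not. The C box (TGATGA) and the D box (CTGA) are in capitals. Of the 454 snoRNA transcripts of 60 to 100 nt in the table, 318 (70.0%) hold both boxes in this order. A relative of Gm24895 on chromosome X, Gm24598 (chrX:64496584-64496657, plus strand), differs from it at 2 of 74 bases. It had 7, 11 and 6 reads in standard and 14 and 8 in AHARIBO RIBO-seq, nearly the counts of Gm24895, so that their reads could hardly be separated.
Gm24895: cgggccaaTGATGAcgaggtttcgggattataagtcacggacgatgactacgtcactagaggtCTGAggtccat
Gm24598: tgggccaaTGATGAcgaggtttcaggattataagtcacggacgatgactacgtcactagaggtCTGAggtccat
DQ267100: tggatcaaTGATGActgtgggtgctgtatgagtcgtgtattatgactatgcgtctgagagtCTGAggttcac
DQ267101: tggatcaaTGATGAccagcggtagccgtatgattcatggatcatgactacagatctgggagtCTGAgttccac

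The snoRNA genes wholly or partly in the exons of Rian-201 are Gm24895, DQ267100, Gm26922 and Gm23508, the last without reads. Taking out every read of these genes left Rian-201 with 19, 19 and 5 reads in standard and 41 and 46 in AHARIBO RIBO-seq. The log2 fold change was then 1.19 (SE 0.27), against 0.86 (SE 0.20) with them. For Rian-202, taking out Gm24895 left 19, 20 and 6 reads against 49 and 48, and a log2 fold change of 1.28 (SE 0.25) in place of 0.94 (SE 0.21). Rian-205 (1017 nt), without Gm24895, had 3, 2 and 2 reads against 12 and 14. Gm24895 itself was at 1.09 ± 0.406 CPM (SD, n = 3) and 1.175 ± 0.244 CPM (SD, n = 2), with a log2 fold change of 0.10 (SE 0.52, edgeR adjusted p = 0.9497 over genes). This subtraction was chosen after the data were seen, and taking out reads with a smaller fold change than the whole raises the fold change by construction. Rian-201 and Rian-202 begin inside Gm24895, so it may take out some reads that they did not hold.

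Reads removed by the authors as duplicates were unevenly spread over the 3 genes. Over all transcripts, 43.3% to 47.7% of reads were removed in each library. For Meg3 the share was 7.69%, 7.69% and 13.4% in standard and 6.67% and 1.20% in AHARIBO RIBO-seq. For Rian it was 22.3%, 32.4% and 28.6% in standard and 53.1% and 32.6% in AHARIBO RIBO-seq, with replicate 1 the highest. For Mirg, with 14 to 68 reads per library, it was 17.1%, 20.5% and 0% in standard and 0% in both AHARIBO libraries. These sums count a read several times, and few reads lie behind them. In Mirg-204, 1, 2 and 0 of 7, 10 and 3 reads were removed in standard RIBO-seq. The share depends on how many reads a transcript has, and was not adjusted for that.

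Within Rian the duplicates were unevenly spread as well. In Rian-220 they were 10, 11 and 2 of 28, 44 and 11 reads in standard and 108 of 153 and 39 of 85 reads in AHARIBO RIBO-seq. In Rian-211 they were 0, 1 and 1 of 9, 12 and 5 reads in standard but 55 of 83 and 18 of 39 reads in AHARIBO RIBO-seq. Rian-207 shares exons of Rian-211 but neither most of its first exon nor a short internal exon. Rian-207 lost 1 of 26 reads in AHARIBO replicate 1 and none in the other libraries. At most 1 of the 55 reads removed from Rian-211 in AHARIBO replicate 1 can therefore lie wholly within their shared sequence. This holds only if duplicates were removed alike on both transcripts. Reads that reach into the unshared exons would not match Rian-207. Gm24895 lost 39 of 54 and 18 of 28 reads in AHARIBO RIBO-seq, against 7 of 14, 16 of 30 and 6 of 12 in standard RIBO-seq. With duplicates kept, the log2 fold change of Rian-211 was 2.36 (SE 0.34) in place of 1.20 (SE 0.36), that of Rian-213 2.06 (SE 0.31) in place of 1.27 (SE 0.28), and that of Rian-220 1.68 (SE 0.29) in place of 0.78 (SE 0.25). How duplicates were defined is not given in the sources used here, and whether they were amplified copies or independent fragments was not tested.

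Mirg spans chr12:109729764-109749460 and has 12 transcripts, none of which had a mean of 1 CPM. Mirg-204 (3822 nt) had 6, 8 and 3 reads in standard and 15 and 8 in AHARIBO RIBO-seq, Mirg-212 (3797 nt) 7, 7 and 3 against 15 and 8, and Mirg-208 (3187 nt) 5, 7 and 3 against 13 and 7. These 3 long transcripts share most of their exons, and AHARIBO replicate 2 was near standard replicates 1 and 2 in each. Their log2 fold changes were 0.61 (SE 0.52), 0.61 (SE 0.52) and 0.58 (SE 0.56), little above their own standard errors. Of the miRNA precursors within the exons of Mirg, Mir485 had the most reads, 1, 0 and 2 in standard and 3 and 3 in AHARIBO RIBO-seq, at or under the limit of the depth.

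Between the 3 genes, levels were compared per length, on the most abundant transcript of each. In standard RIBO-seq, Meg3-207 was at 3.12 ± 0.615, Rian-201 at 0.449 ± 0.177 and Mirg-212 at 0.179 ± 0.0460 CPM per kb (SD, n = 3). In AHARIBO RIBO-seq they were at 3.64 ± 0.530, 0.849 ± 0.0221 and 0.278 ± 0.0956 CPM per kb (SD, n = 2). The order was the same in all 5 libraries. Rian-201 and Mirg-212 were closest in standard RIBO-seq, where the lowest value of Rian-201 was 0.275 and the highest of Mirg-212 0.207 CPM per kb. Much of the density of Meg3-207 lies in the part that it shares with Gm27000.

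Among 1166 lncRNA genes with at least 1 CPM in a library, Meg3 ranked 355th in standard and 322nd in AHARIBO RIBO-seq by this measure. Rian ranked 939th and 755th, and Mirg 1085th and 1016th. The set includes entries with symbols of protein-coding genes, such as Cct6a at 507 CPM and Tmem134 at 104 CPM. Whether coding transcripts supplied their reads was not tested. The median of all these genes was 1.53 and 1.48 CPM per kb, so that Meg3 lay above it and the others below. For Rian this rests on the transcript taken: the shorter Rian-202 was at 1.21 CPM per kb in standard RIBO-seq, below the median, and at 2.42 CPM per kb in AHARIBO RIBO-seq, above it. Without the part shared with Gm27000, Meg3-207 was at 1.39 CPM per kb in standard RIBO-seq, below that median, and at 2.29 CPM per kb in AHARIBO RIBO-seq, above it. The median log2 fold change of the 1166 genes was -0.09. By the log2 fold change, 48 of them were above Rian, 166 above Mirg and 217 above Meg3.

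**Figure D5:**
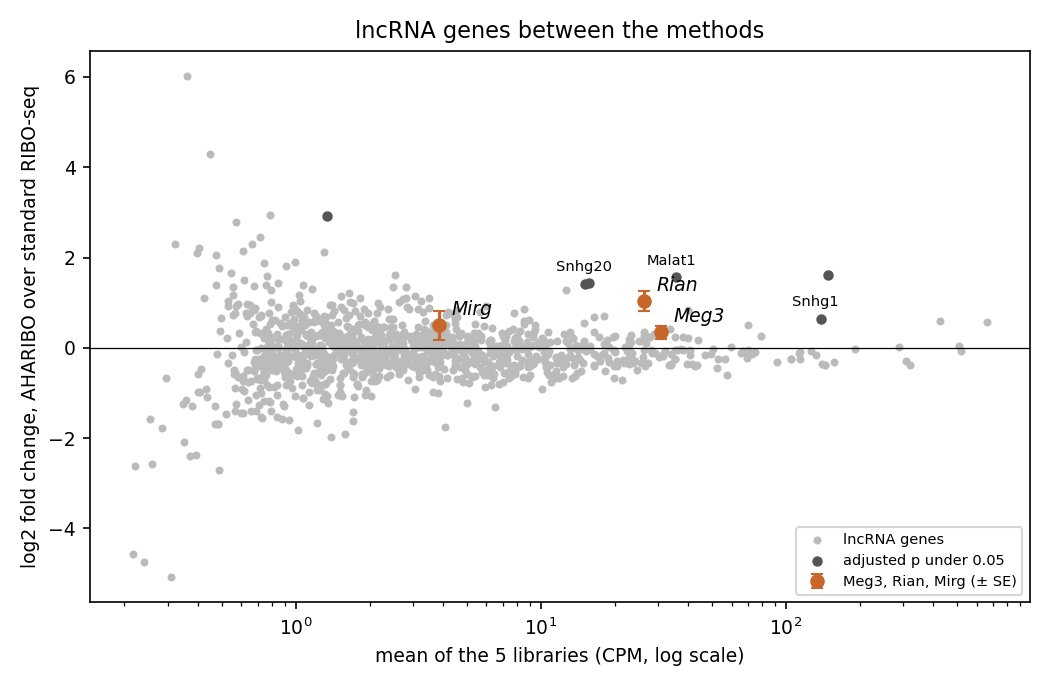
Log2 fold change of AHARIBO over standard RIBO-seq against the mean level of the 5 libraries (CPM, log scale) for 1166 lncRNA genes (grey), with genes past an edgeR adjusted p of 0.05 in dark grey and Meg3, Rian and Mirg in orange with their SE. The median of all these genes is -0.09, and Rian, Mirg and Meg3 are at 1.04, 0.50 and 0.34.

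The lncRNA genes whose log2 CPM followed the members most closely over the 5 libraries are given as a description, out of 1163 genes compared on 5 points that share depth and preparation. For Meg3 they were Gm17590 (Pearson's r = 0.991), 2900060B14Rik (r = 0.988) and Gm49207 (r = 0.987). For Rian they were Rbm3os (r = 0.996), Gm12940 (r = 0.990) and Gm16794 (r = 0.989). For Mirg they were Ino80dos (r = 0.980), 1700126G02Rik (r = 0.974) and Gm17036 (r = 0.971). A high correlation does not imply a like range: Rbm3os ran from 3.10 to 4.81 CPM, whereas Rian ran from 11.6 to 38.5 CPM.

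The domain from Dlk1 to Dio3 (chr12:109452823-110281097, 828.3 kb) holds 115 other genes of the table, of which 67 are miRNA and 23 snoRNA genes. Of the 115, 59 had no reads and 10 reached 1 CPM in a library. None of these 10 passed edgeR's test over all genes at an adjusted p under 0.05, where 92 of 20256 genes (0.454%) did, while 1 had an unadjusted p under 0.05, beside 14.5% of all genes tested. Of the 10, 4 reached 1 CPM in AHARIBO libraries alone, Gm26906, DQ267100, AF357428 and AF357341, and so entered the test through the group where they were high. DESeq2 gave an adjusted p for 1 of the 10 and called 0.

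The neighbour with an unadjusted p under 0.05 was Rtl1, a retrotransposon-derived protein-coding gene transcribed from the opposite strand between Meg3 and Rian. It had 8, 10 and 4 reads in standard and 28 and 25 in AHARIBO RIBO-seq, or 0.898, 1.11 and 0.620 against 2.515 and 2.505 CPM. The groups did not overlap. The log2 fold change was 1.48 (SE 0.40, edgeR adjusted p = 0.171 over genes). In the test over transcripts its single transcript had a log2 fold change of 1.44 (SE 0.36, edgeR adjusted p = 0.0110), and that adjusted p became 0.0555 without standard replicate 1 and 0.140 without AHARIBO replicate 1. The call thus depended on the table tested. Rtl1 and the members share all libraries, and their values are set side by side only.

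The other coding genes of the domain, Dlk1 and Dio3, had overlapping libraries. Dlk1, which encodes a transmembrane ligand related to Notch ligands, was at 4.94, 2.88 and 9.76 CPM in standard and at 6.74 and 4.21 CPM in AHARIBO RIBO-seq. The standard libraries were further apart than the methods, and the log2 fold change was -0.04 (SE 0.41, edgeR adjusted p = 0.978). Dio3, the deiodinase that inactivates thyroid hormone, was at 0.449 to 1.24 CPM in standard and at 0.898 and 0.501 CPM in AHARIBO RIBO-seq (log2 fold change -0.37, SE 0.69, edgeR adjusted p = 0.847). Whether the change of these genes differed from that of Rtl1 was not tested.

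Outside the exons of the members, the snoRNA genes AF357428 and AF357341 lie between Rian and Mirg. AF357428 had 4, 4 and 1 reads in standard and 10 and 12 in AHARIBO RIBO-seq, and AF357341 had 5, 4 and 3 against 11 and 10. Their log2 fold changes were 1.49 (SE 0.72, edgeR adjusted p = 0.377) and 1.00 (SE 0.64, edgeR adjusted p = 0.508). DQ267100 had 0.75 (SE 0.64, edgeR adjusted p = 0.633). Summed over the 23 snoRNA genes of the domain, the level was 4.61 ± 1.20 CPM (SD, n = 3) in standard and 7.50 ± 0.828 CPM (SD, n = 2) in AHARIBO RIBO-seq, 1.63-fold higher. The snoRNA genes outside the domain were 1.54-fold higher, at 600 ± 33.9 and 921 ± 104 CPM. The 67 miRNA genes summed to 1.53 ± 0.622 and 2.35 ± 0.784 CPM, with overlapping libraries.

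Gm26906, a lincRNA on the minus strand opposite the 3′ end of Meg3-209, had 0, 3 and 0 reads in standard and 12 and 2 in AHARIBO RIBO-seq (edgeR adjusted p = 0.458), so its level rested on AHARIBO replicate 1. Although the study states that antisense reads were removed, Mir337 and Mir3544, which overlap on opposite strands, had equal counts in every library. Mir136 and Mir3071 were likewise equal, so the counts did not separate the strands at these genes. From which strand the reads of Gm26906, Meg3-209 and Rtl1 came was not tested. The pseudogenes Gm9661 and Gm3379 were at 2.92 ± 0.443 and 123 ± 7.42 CPM in standard and at 2.70 ± 1.28 and 110.4 ± 10.9 CPM in AHARIBO RIBO-seq (edgeR adjusted p = 0.914 and 0.479).

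Among imprinted genes elsewhere in the genome and regulators of imprints, no gene passed edgeR's test over all genes. Of 45 imprinted genes outside the domain, 36 were tested and 0 passed edgeR's test, with 6 at an unadjusted p under 0.05, beside 14.5% of all genes tested. DESeq2 gave an adjusted p for 19 of them and called 1. Their median log2 fold change was 0.02, beside 0.01 over all genes. The most abundant were Jade1, at 1018 to 1087 CPM over the 5 libraries, and Gnas, which encodes a G protein subunit, at 839 to 882 CPM. Their log2 fold changes were 0.04 (SE 0.05, edgeR adjusted p = 0.798) and -0.01 (SE 0.05, edgeR adjusted p = 0.936).

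All 31 regulators of imprints were tested and 0 passed edgeR's test, with 12 at an unadjusted p under 0.05, where 14.5% of all genes tested had one. DESeq2 gave an adjusted p for 28 of them and called 2. Their median log2 fold change was 0.09. Trim28, the co-repressor that keeps imprints methylated, was the most abundant at 1390 to 1607 CPM (log2 fold change -0.12, SE 0.05, edgeR adjusted p = 0.314). Uhrf1, which brings the maintenance methyltransferase to DNA, was at 803 to 895 CPM (log2 fold change -0.08, SE 0.06, edgeR adjusted p = 0.542).

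Among other lncRNAs, Malat1, an abundant RNA of nuclear speckles, rose from 22.6, 21.4 and 15.7 CPM in standard to 64.7 and 53.4 CPM in AHARIBO RIBO-seq (log2 fold change 1.56, SE 0.16, edgeR adjusted p = 0.00174). It was the only 1 of 4 nuclear lncRNAs that passed, beside 0.454% of all genes. Tug1 was at 24.5 to 28.0 CPM in standard and at 31.4 and 34.3 CPM in AHARIBO RIBO-seq, without passing (log2 fold change 0.31, SE 0.12, edgeR adjusted p = 0.289). The median log2 fold change of the 4 was 0.64. Kcnq1ot1 is in this list and in that of imprinted genes.

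Of 14 host genes of snoRNAs, such as Gas5, which like Rian carry snoRNAs in their transcripts, 11 were tested and 2 rose, beside 0.454% of all genes called in either direction. Snhg1 rose from 105 to 124 CPM in standard to 157 and 199 CPM in AHARIBO RIBO-seq (log2 fold change 0.65, SE 0.11, edgeR adjusted p = 0.0478). Snhg20 rose from 5.42 to 12.4 CPM to 22.4 and 26.8 CPM (log2 fold change 1.42, SE 0.24, edgeR adjusted p = 0.0455). Gas5, the most abundant, was at 289.6 CPM on average (log2 fold change 0.01, SE 0.08, edgeR adjusted p = 0.956). The median of the 11 was 0.24. These 2 calls were near the threshold: without standard replicate 1 or without AHARIBO replicate 2, 0 remained past it, and without any other single library 1 did.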

How the data were processed

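The deposited table holds raw counts for each transcript, with and without duplicate reads, and the transcript's length. Per the study's methods, reads were trimmed with Trimmomatic 0.36, cleared of rRNA and tRNA, and mapped to Gencode M17 transcripts with STAR, and antisense and duplicate reads were removed. Counts without duplicates were used. The deposited table had 0 unused columns of sample values. Names and coordinates came from Gencode M21 (GRCm38), matched by identifier for 134952 of 135276 transcripts. The members and gene lists were chosen with earlier results of these data known. Named were the 3 genes, per gene the 3 most abundant transcripts, those called, transcripts on which nested pairs turn, neighbours from 1 CPM, and per list the called and most abundant genes. Transcripts of other genes and of Rian's 5′ end that illustrate sharing were named after their values were seen.

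TMM-scaled CPM and quasi-likelihood tests came from edgeR 4.0.16 (R 4.3.3), over transcripts or over sums per gene with 1 CPM in a library, without a replicate block, with Benjamini-Hochberg adjustment over each table. Standard errors were derived from the fold change and F and are approximate. CPM of genes and of transcripts use their own factors. These p-values measure the spread between these libraries. lncRNA genes are the Gencode long non-coding types, processed transcript included. Correlations used log2(CPM + 0.5). Alternatives covered DESeq2 1.42.0, normalization, filters, duplicates, the block, 1 transcript per gene and leaving out libraries. On simulated data with 200 changed features, edgeR recovered 88% of 4-fold and 24% of 2-fold changes over transcripts, and 89% and 47% over genes. Sequences are those of Gencode M21 transcripts.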

Additional observations from a re-analysis of the deposited data

How the results depend on the processing

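Transcripts of the 3 genes had 0 to 87 reads per library, and there were 3 libraries against 2. The log2 fold change of Rian ranged from 0.81 to 1.32 when each library was left out in turn, that of Meg3 from 0.23 to 0.46 and that of Mirg from -0.0164 to 0.86. Under DESeq2, library-size scaling, both filters, duplicates kept and the most abundant transcript in place of the sum, all 3 moved by less than the spread between replicates. Without reads that a snoRNA gene or Gm27000 also holds, an alternative added later, the most abundant Meg3 transcript gave 0.70 and the others stayed within that spread.

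Of the 24 member transcripts tested, 7 were called. With 1 CPM asked of every library 4 of 12 were called, with duplicates kept 4 of 16, and when libraries were left out 2 to 8. DESeq2 gave no adjusted p for any of the 24. The transcripts called over the table, 3021, became 308 with DESeq2, 1792 with the replicate block and 510 (without AHARIBO replicate 1) to 3829 with libraries left out, with 1173 and 1815 without standard replicates 1 and 3. The genes called, 92, became 302 with DESeq2, 904 without a filter, 282 with duplicates kept, 942 with the most abundant transcript (946 also without shared reads), 436 with the block and 38 (without AHARIBO replicate 2) to 69 (without standard replicate 3) with libraries left out, the other libraries lying between. The cause of these shifts was not tested.

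The counts of 0 became, for imprinted genes, 1 with DESeq2, 5 without a filter, 1 with duplicates kept, 1 with the block, and 2 with the most abundant transcript, also without shared reads. For regulators they became 2 with DESeq2, 3 without a filter, 1 with the block and 3 with the most abundant transcript, also without shared reads. For neighbours 1 (Rtl1) was called without a filter and with the most abundant transcript, with or without shared reads. The 2 snoRNA host genes became 1 with DESeq2, 4 with the most abundant transcript, with or without shared reads, and 0 to 1 with libraries left out.

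Replicate numbers 1 and 2 occur in both methods. The study's text says that standard RIBO-seq was run on the input of the capture, but neither it nor the labels say that equal numbers mark one lysate. Deviations from the group means correlated at 0.0215 and -0.115 in the same-numbered pairs. With the replicate block, the log2 fold change was 0.24 for Meg3, 0.83 for Rian and 0.26 for Mirg, and 5 member transcripts were called. The share of duplicates of the 3 genes stayed within the spread between libraries when any library was left out.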
